A study of Homo sapiens with 9 samples.

Results

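The genes described here are receptors and ligands of the epidermal growth factor receptor (EGFR) family: the receptors EGFR, ERBB2 and ERBB3 and the ligands EREG (epiregulin), HBEGF (heparin-binding EGF-like growth factor), AREG (amphiregulin) and TGFA (transforming growth factor alpha). They were found by matching the Ensembl identifier of each row of the expression table to its gene symbol, which gave 7 of the 15354 rows. All 7 were detected in every library and passed the filter used for the tests. RNA came from HCT116, an established human colorectal cancer cell line, into which siRNAs (short double-stranded RNAs that direct the cleavage of a matching RNA) were brought by reverse transfection, at 25 nM by the sample labels. The 9 libraries form 3 groups of 3: a commercial non-targeting control siRNA, siRNA A against the long non-coding RNA SNHG5, and siRNA B against the same RNA. Nothing on the labels ties A or B to an siRNA named by the study. All groups were transfected, so no untreated cells were analysed here, and HCT116 is a single cell line. The study's methods call the replicates biological.

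Receptors of this family sit in the plasma membrane and pair up when a ligand binds, which switches on the tyrosine kinase inside the cell and passes a signal through adaptors to the RAS-ERK and PI3K-AKT pathways. ERBB2 has no known soluble ligand and acts as a partner of the other receptors, while ERBB3 has a weak kinase and is known for recruiting PI3K. The ligands are made as membrane-bound precursors that metalloproteases cut free, and intestinal epithelium and colorectal tumours are known to make several of them.

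Before the comparisons, the targeted RNA itself was checked. SNHG5 ran from 22.1 to 31.3 CPM (reads of a gene relative to a fixed common library total) in the control libraries, from 58.8 to 71.5 under the label siRNA A and from 46.1 to 50.3 under the label siRNA B. The targeted RNA therefore exceeded every control value in each of the 6 supposed knock-downs, which goes against their labels, and every direction given here is between libraries as labelled. Depth was 15566530 to 23277549 reads. Before the scaling described next, 1 CPM thus stood for 15.6 to 23.3 reads. On that unscaled measure a count of 0 would allow up to 0.129 to 0.193 CPM, and both are for counting error only. CPM are given after scaling by TMM factors (trimmed mean of M values, which centre the bulk of the genes), and these averaged 1.14 in control, 0.886 under label A and 0.988 under label B. With library totals alone the median of all 13893 tested genes moved to −0.34 (label A against control) and −0.18 (label B against control) on the log2 scale, against −0.02 and 0.0043 with TMM factors. All 8 colorectal epithelial markers were at or above 1 CPM in every library, with summed levels of 1817 to 1982 CPM in control, 3175 to 4155 under label A and 2460 to 2589 under label B. The keratins carried most of that sum: KRT8 averaged 788 CPM in control and 1654 under label A, while EPCAM went from 179 to 122 and CDX2 from 14.2 to 9.62, and of the 8 markers 4 were called higher and 2 lower under label A and 3 higher and 1 lower under label B. Of 6 fibroblast markers 4 had a row, summing to 8.77 to 17.8 CPM, nearly all of it COL1A1, with LUM at 0 throughout. Of 4 leukocyte markers only CD68 had a row, at 0.524 to 1.36 CPM, and none of 4 endothelial markers had one. In bulk RNA, fewer cells of a kind and less RNA per cell cannot be told apart, and the part of these markers in the results was not tested.

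In the libraries labelled siRNA A, the ligands EREG, HBEGF and AREG were higher than in control and the receptor ERBB2 was lower, while EGFR, ERBB3 and TGFA did not pass the test. In those labelled siRNA B, the same 3 ligands were higher and so was EGFR, and no member was lower. Of the 7 members, 4 were called under each label, at an adjusted p under 0.05 in limma's moderated test on log2(CPM + 1). Under label A, 3 were higher and 1 lower. Blocking on the replicate number, by which these libraries were taken as paired, added TGFA as lower. The calls given here are without the block unless it is named. Across all tested genes 51.4% were called without the block, 23.9% higher and 27.6% lower. Under label B, 4 were higher and 0 lower, where 34% of all tested genes were called, 15.6% higher and 18.3% lower. Members whose 3 values did not overlap with those of control numbered 4 of 7 under each label, against 59.5% of all tested genes for label A and 47.6% for label B. The share called among the members was thus close to the background for label A. For label B it was higher, but 7 genes are too few to read this as a trait of the members. The label B calls of EGFR and AREG were also lost under some alternatives, given below. Both comparisons use the same control libraries, so their calls are not independent of each other. EREG, HBEGF and AREG were called higher under both labels with all 3 scalings run (TMM, size factors from medians of ratios, and totals). With library totals alone, the calls under label A were 3 higher and 3 lower, and under label B 3 higher and 0 lower, while among all genes the share of calls that were higher went from 46.4% to 16.1% for label A and from 46% to 18.8% for label B.

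**Figure D1:**
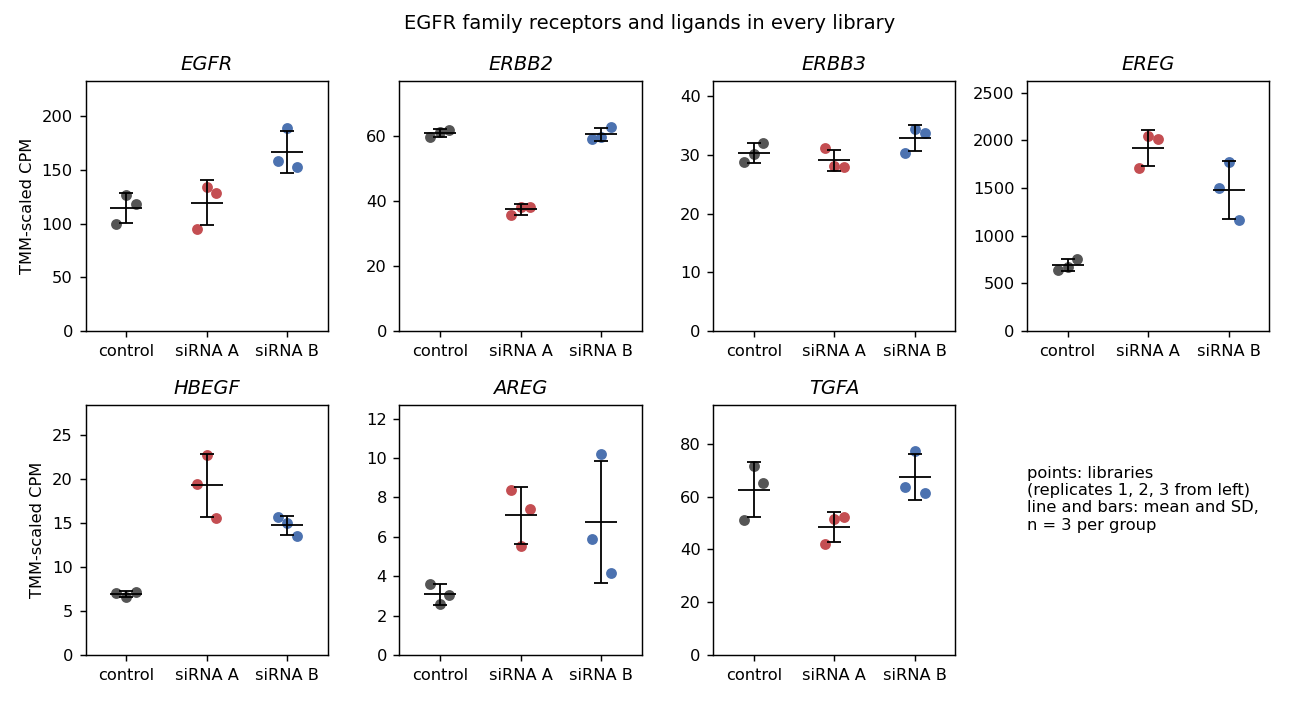
Level of each gene in TMM-scaled CPM (y axis, from 0) in the 3 control libraries and the 3 libraries under each siRNA label (x axis); points are libraries, the long line is the mean and the bars are the SD. ERBB2 sat between 35.6 and 38.3 CPM under label A and between 59.0 and 62.7 CPM in the other 6 libraries, while EREG and HBEGF were higher in all 6 libraries labelled as knock-downs than in any control.

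EGFR, the receptor that binds all 4 of these ligands, lies on chromosome 7 (GRCh37 chr7:55086710-55279321, plus strand, ENSG00000146648.11), where its annotation overlaps the antisense gene EGFR-AS1. It measured 99.4, 127 and 119 CPM in control, 95.4, 134 and 129 CPM under label A, and 159, 189 and 152 CPM under label B. The control and A-labelled values overlapped, and every B-labelled library lay above all 6 others. The mean was 115 ± 14.01 in control (SD, n = 3), 119 ± 20.9 under label A and 167 ± 19.7 under label B. Against control the log2 fold change was 0.05 (95% interval −0.27 to 0.36, limma adjusted p = 0.809) for label A. For label B it was 0.54 (SE 0.15, limma adjusted p = 0.0147), a change that no longer passed on the scale of library totals (0.32, adjusted p = 0.0989) or when control replicate 1, the lowest control value, was left out (0.43, adjusted p = 0.0533). EGFR was lower under label A than under label B by −0.49 (SE 0.15, limma adjusted p = 0.0210). That difference did not pass without A-labelled replicate 1 (−0.34, adjusted p = 0.0842) or without B-labelled replicate 2 (−0.40, adjusted p = 0.0637).

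ERBB2, the ligandless partner receptor, lies on chromosome 17 (chr17:37844167-37886679, plus strand, ENSG00000141736.8), where PGAP3 and MIEN1 on the other strand share exon bases with it. Its 3 control values were 59.7, 61.4 and 61.9 CPM, the A-labelled values 35.6, 38.3 and 38.3 CPM, and the B-labelled values 59.0, 59.8 and 62.7 CPM. ERBB2 had the tightest replicates of the receptors and the A-labelled libraries lay apart below all 6 others. Its log2 fold change for label A against control was −0.69 (SE 0.09, limma adjusted p = 8.26e-05), from 61.0 ± 1.16 to 37.4 ± 1.55 CPM. For label B the change was −0.01 (95% interval −0.20 to 0.18, limma adjusted p = 0.942). With TMM factors, a change beyond 0.20 in size thus lay outside the interval. With library totals alone the label B value was −0.22 (limma adjusted p = 0.116), beside −0.18 for the median gene on that scale. The direct comparison of the labels gave −0.68 for A against B (limma adjusted p = 0.000179), with 3 of 3 A-labelled libraries lower. The lower level under label A was called in all 16 other settings run.

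ERBB3, the kinase-poor receptor for neuregulins, is on chromosome 12 (chr12:56470583-56497289, plus strand, ENSG00000065361.8) and shares exon bases with an unnamed gene on the same strand. It measured 28.7, 30.2 and 32.0 CPM in control, 31.1, 28.1 and 27.9 CPM under label A, and 30.3, 34.5 and 33.8 CPM under label B. The 3 groups overlapped. Its log2 fold change was −0.06 (95% interval −0.28 to 0.16, limma adjusted p = 0.645) for label A and 0.11 (adjusted p = 0.434) for label B. With library totals alone the label A value became −0.42 (adjusted p = 0.00606), beside −0.34 for the median gene on that scale, and the label B value turned to −0.10 (adjusted p = 0.536).

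Leaving out AREG, whose level is uncertain as given below, EREG was the most abundant member and stood far above the others per kilobase. It encodes epiregulin, a ligand of EGFR and ERBB4, and lies beside AREG on chromosome 4 (chr4:75230862-75254466, plus strand, ENSG00000124882.3). The control libraries held 642, 675 and 759 CPM, those labelled siRNA A 1705, 2046 and 2013 CPM, and those labelled siRNA B 1495, 1768 and 1167 CPM. Every library labelled as a knock-down exceeded every control, and the labels A and B overlapped each other. Between 15542 and 37566 reads stood behind each value, so replicate spread and not counting set its error. From 692 ± 60.5 CPM in control, EREG reached 1921 ± 188 CPM under label A, a log2 fold change of 1.47 ± 0.15 (SE) at a limma adjusted p of 2.4e-05. Under label B it reached 1477 ± 301 CPM, a log2 fold change of 1.08 ± 0.15 (SE) at a limma adjusted p of 0.000359. Label A exceeded label B by 0.40 (95% interval 0.06 to 0.73, limma adjusted p = 0.0633), which did not pass. It did pass without B-labelled replicate 2 (0.54, adjusted p = 0.0160).

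HBEGF, a heparin-binding ligand of EGFR and ERBB4 that is also the diphtheria toxin receptor, is on chromosome 5 (chr5:139712428-139726188, minus strand, ENSG00000113070.6). It measured 7.10, 6.60 and 7.16 CPM in control, 19.5, 22.8 and 15.6 CPM under label A, and 15.7, 15.0 and 13.5 CPM under label B. Its levels rose above every control in all 6 libraries, while A and B overlapped in a single pair of values. Its log2 fold change of 1.34 ± 0.14 (SE) for label A had a limma adjusted p of 2.29e-05, and that of 0.98 ± 0.14 (SE) for label B one of 0.000333. On this scale the added 1 CPM shrinks the change of a low gene, and the plain ratio of means was 2.78 for label A and 2.12 for label B. For EREG, far above 1 CPM, the same ratios were 2.78 and 2.13. The difference of A from B was 0.35 (95% interval 0.05 to 0.66, limma adjusted p = 0.0654), and it passed without A-labelled replicate 3 (0.49, adjusted p = 0.0187).

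AREG, an EGFR ligand known for its part in epithelial repair, was the lowest member by reads, with 59 to 158 reads a library. Its levels were 3.59, 2.56 and 3.06 CPM in control, 8.35, 5.52 and 7.39 CPM under label A, and 5.90, 10.2 and 4.16 CPM under label B. All 6 libraries labelled as knock-downs were above all controls, and the B-labelled libraries spread more widely (6.76 ± 3.11) than the A-labelled ones (7.09 ± 1.44). Against control, AREG had a log2 fold change of 0.98 ± 0.25 (SE) for label A at a limma adjusted p of 0.00579, and of 0.86 ± 0.25 (SE) for label B at 0.0181. Under label B the change did not pass when control replicate 2 (0.77, adjusted p = 0.0685) or control replicate 3 was left out (0.86, adjusted p = 0.0504), nor with no filter on low genes (0.86, adjusted p = 0.0515), and the value fell to 0.56 without B-labelled replicate 2 (adjusted p = 0.0471). The labels A and B differed by 0.12 (95% interval −0.42 to 0.66, limma adjusted p = 0.736).

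AREG has a limit that the other members lack, which is shown by its sequence. On GRCh37 the gene (chr4:75310853-75320722, plus strand, ENSG00000109321.6) has a second annotated copy, AREGB (chr4:75480629-75490486, plus strand), which has no row among those analysed here. The coding sequences of both copies are 756 bases long and differ at 1 base, G30A, counted from 1 at the first base of the start codon with the base of AREG first. That base lies in the first coding exon, at chr4:75311092 in AREG, and the coding part of this exon is printed from the reference for both copies (AREG chr4:75311063-75311123, AREGB chr4:75480839-75480899, plus strand), with the base that differs in capitals.
AREG: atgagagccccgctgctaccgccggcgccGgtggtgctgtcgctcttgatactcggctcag
AREGB: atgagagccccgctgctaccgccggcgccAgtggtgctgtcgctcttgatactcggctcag

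Of the 1348 stretches of 50 bases, the read length, that start in an AREG exon and stay within it, 32 (2.37%) occur at a single place in GRCh37, and the other 1316 occur in both copies. Among the 1185 stretches of the spliced AREG transcript, splice junctions included, 50 are not found in the spliced AREGB transcript. The other members have 96.1% to 100% of their exonic stretches at a single place. How the authors' counting treated reads with several positions is not given in the sources used here, so the AREG level is uncertain and cannot be set against the other ligands, whereas its comparison between groups rests on the same positions in every library.

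**Figure D2:**
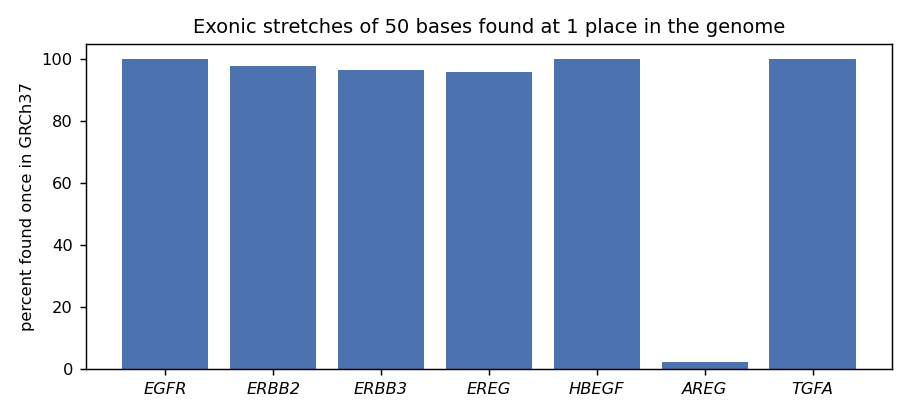
Percent of exonic stretches of 50 bases that occur at 1 place in the GRCh37 reference (y axis, from 0) for each gene (x axis). AREG stands at 2.37%, and the other 6 genes lie between 96.1% and 100%.

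TGFA, an EGFR ligand on chromosome 2 (chr2:70674416-70781325, minus strand, ENSG00000163235.11), differed from the other ligands. It measured 51.2, 71.7 and 65.0 CPM in control, 42.1, 51.5 and 52.2 CPM under label A, and 63.7, 77.3 and 61.3 CPM under label B. Control overlapped with both labels, but every A-labelled value lay below every B-labelled one. For label A against control TGFA had a log2 fold change of −0.35 ± 0.14 (SE) at a limma adjusted p of 0.0577, while blocking on the replicate number gave the same value an adjusted p of 0.0115. It also passed with library totals alone (−0.71, adjusted p = 0.00115), without control replicate 1 (−0.49, adjusted p = 0.0135) and without B-labelled replicate 2 (−0.35, adjusted p = 0.0408). For label B the change was 0.11 (95% interval −0.20 to 0.42, limma adjusted p = 0.587), and it turned to −0.10 with library totals alone and to −0.025 without control replicate 1. TGFA was lower under label A than under label B by −0.46 (SE 0.14, limma adjusted p = 0.0249), a call lost without A-labelled replicate 1 (−0.36, adjusted p = 0.0955) or B-labelled replicate 2 (−0.36, adjusted p = 0.0763).

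Set directly against each other, the libraries labelled A and B differed in EGFR, ERBB2 and TGFA, all lower under label A, while EREG, HBEGF and AREG did not pass. That is 0 higher and 3 lower of 7, where 37.1% of all tested genes were called, 17.6% higher and 19.5% lower. The same 3 members had values that did not overlap between A and B, against 47.6% of all tested genes. Without A-labelled replicate 1 only ERBB2 was called, whereas the replicate block and DESeq2 each called 5 members, with EREG (adjusted p = 0.0464 and 0.0371) and HBEGF (adjusted p = 0.0407 and 0.0415) higher under label A.

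**Figure D3:**
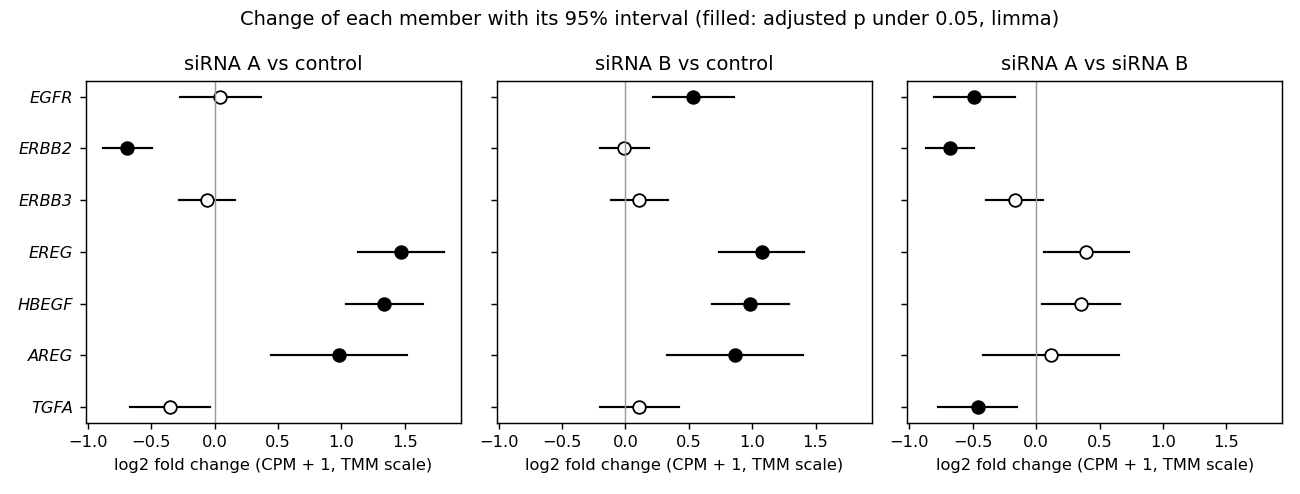
Log2 fold change of each gene on the log2(CPM + 1) scale with TMM factors (x axis) with its 95% interval, for label A against control, label B against control and label A against label B; filled points had an adjusted p under 0.05 in limma. EREG, HBEGF and AREG lie right of 0 in both comparisons with control (0.86 to 1.47), and ERBB2 lies left of 0 for label A (−0.69) and at −0.01 for label B.

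Levels were compared per kilobase of annotated exon, so that those of different genes could be set side by side. With AREG left out, EREG stood far above the rest at 121 ± 10.6 CPM per kilobase in control. Next came TGFA at 12.7 ± 2.13, EGFR at 7.21 ± 0.88 and ERBB2 at 5.91 ± 0.11, followed by ERBB3 at 2.59 ± 0.14 and HBEGF at 2.33 ± 0.10. AREG was listed at 1.87 ± 0.31, with the uncertainty given above. With this length, no neighbours in the order overlapped in their ranges over the 3 control libraries, leaving out AREG, whose level cannot be ranked against the others. Under label A, EREG reached 336 ± 32.9 CPM per kilobase and HBEGF, at 6.46 ± 1.21, stood above ERBB2, at 3.63 ± 0.15. Under label B, EREG reached 258 ± 52.7, EGFR 10.5 ± 1.24 and HBEGF 4.93 ± 0.38, which was below ERBB2 at 5.87 ± 0.19. Parts of this order depended on the length used. With the longest annotated transcript in place of all exons, ERBB2 stood at 12.4 and EGFR at 11.6 CPM per kilobase in control. TGFA, at 12.4 to 17.4, then overlapped both. By that length the means of EGFR (12.1 and 16.8) were above those of TGFA (11.8 and 16.4) under labels A and B, but their ranges overlapped. Under label A EGFR ran from 9.64 to 13.5 and TGFA from 10.2 to 12.7. Under label B EGFR ran from 15.4 to 19.1 and TGFA from 14.9 to 18.8. HBEGF (6.61 to 9.68) and ERBB2 (7.23 to 7.77) then overlapped under label A.

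A ratio of reads of 2 members within a library needs no scaling between libraries, and it compares groups but not the levels of the genes. These ratios were chosen after the values were seen. With 3 libraries against 3, the smallest p that the exact permutation test can give is 0.1, so none of them can reach 0.05. The ratio of EGFR to ERBB2 reads was 1.88 ± 0.20 in control, 3.18 ± 0.44 under label A and 2.76 ± 0.37 under label B, without overlap between control and either label (two-sided exact permutation p = 0.1 for each). The ratio of EGFR to ERBB2 was thus higher under both labels, with ERBB2 the member called under label A and EGFR under label B. The ratios with ERBB3 did not separate from control under both labels. EGFR to ERBB3 was 3.79 ± 0.369 in control, 4.15 ± 0.938 under label A and 5.08 ± 0.507 under label B. In it, label A overlapped with control and label B lay above. ERBB3 to ERBB2 was 0.497 ± 0.0186, 0.779 ± 0.0820 and 0.542 ± 0.0318 in the same order. There, label A lay above control and label B overlapped with it. EREG to TGFA was 11.2 ± 1.61 in control, 39.6 ± 0.96 under label A and 21.8 ± 2.42 under label B, and HBEGF to TGFA was 0.114 ± 0.0235, 0.402 ± 0.0897 and 0.220 ± 0.0259. Neither ratio overlapped between any of the 3 groups (two-sided exact permutation p = 0.1 for each comparison). EREG to HBEGF, in contrast, was 99.6 ± 8.10 in control, 102 ± 23.5 under label A and 99.7 ± 16.0 under label B, and the groups overlapped (two-sided exact permutation p = 1, 1 and 0.8). EGFR to TGFA was 1.84 ± 0.0892 in control, 2.44 ± 0.168 under label A and 2.48 ± 0.0229 under label B. Both labels lay above control in this ratio (two-sided exact permutation p = 0.1 for each), with p = 0.8 between them.

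**Figure D4:**
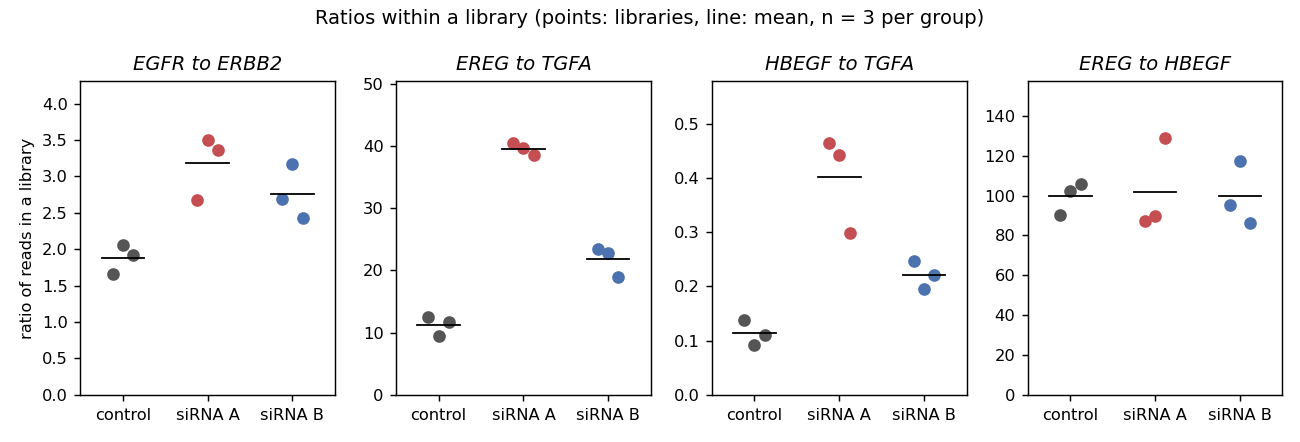
Ratio of the reads of 2 genes within a library (y axes, from 0) by group (x axis); points are libraries and lines are means. EREG to TGFA separates all 3 groups (means 11.2, 39.6 and 21.8), while EREG to HBEGF overlaps between them (means 99.6, 102 and 99.7).

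Since EREG, AREG and HBEGF were higher together, the 100 bases upstream of their starts are shown, from RefSeq on GRCh38.p14 (EREG chr4:74365045-74365144, plus strand; AREG chr4:74445036-74445135, plus strand; HBEGF chr5:140346604-140346703, minus strand). Each is read 5′ to 3′ on the strand of its gene, and capitals mark matches to the motifs searched.
EREG: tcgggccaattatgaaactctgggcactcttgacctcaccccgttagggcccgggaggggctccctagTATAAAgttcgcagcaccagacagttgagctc
AREG: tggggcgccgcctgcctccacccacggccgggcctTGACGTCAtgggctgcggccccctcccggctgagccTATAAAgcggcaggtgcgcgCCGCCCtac
HBEGF: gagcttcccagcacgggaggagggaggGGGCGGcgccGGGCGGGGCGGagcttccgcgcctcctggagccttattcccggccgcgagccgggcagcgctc

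The motifs searched, on both strands of windows from 250 bases before to 50 after the start, were TATAAA (the TATA box), TGACGTCA (the cAMP response element), TGANTCA (the AP-1 site) and GGGCGG (the GC box). EREG and AREG, which are neighbours in the genome, each had TATAAA, 32 and 29 bases before the start. This motif was in 11.5% of all 35116 RefSeq windows. AREG also had TGACGTCA 65 bases before the start, a motif in 1.85% of all windows, and GGGCGG on the opposite strand 9 bases before it. HBEGF had 5 matches to GGGCGG, of which the 3 nearest, at 73, 63 and 58 bases, fall in the stretch printed and the last 2 overlap by 1 base, and 45.0% of all windows held that motif. None of the 3 windows held TGANTCA, which was in 7.71% of all. No motif was shared by all 3 ligands, and a match is a description of letters only.

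Each member was also matched to the tested genes whose log2 levels followed it most closely over the 9 libraries, by Pearson's r, as a description in which the 3 groups carry most of the spread. ERBB2 was followed by GAREM2 (0.992), ETV5 (0.991) and CDC42EP4 (0.990), and EREG by SPOPL (0.995), WEE1 (0.993) and PRKAB1 (0.992). HBEGF was followed by SNHG1 (0.993), KDELR1 (0.992) and EIF3L (0.991). EGFR had KAT2B (0.980) and L1CAM (0.962) among its closest, and TGFA had YEATS2 (0.982), ATP11B (0.981) and AFF1 (0.978). The closest genes were less alike for the members with small or noisy differences, AREG with GTPBP10 (0.966), VCPKMT (0.928) and CDC42EP3-AS1 (0.927), and ERBB3 with DMWD (0.921), ZNF414 (0.910) and BCAM (0.892).

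Among the other ligands and receptors of the family, 4 of 9 had a row and 3 were tested. BTC (betacellulin, a ligand of EGFR and ERBB4) was lower under both labels, at 2.03 to 2.40 CPM in control, 0.27 to 0.60 under label A and 1.10 to 1.74 under label B. Its log2 fold change was −1.15 (limma adjusted p = 0.000129) for label A and −0.46 (limma adjusted p = 0.0415) for label B. BTC thus moved opposite to EREG, HBEGF and AREG. Only 5 to 8 reads a library stood behind the label A values, against 47 to 55 in control. The added 1 CPM shrinks the change of so low a gene. The means were 2.16 CPM in control, 0.43 under label A and 1.32 under label B. The label B call was lost with a pseudocount of 0.1 (−0.70, adjusted p = 0.0920), with DESeq2 (−0.72, adjusted p = 0.0892), and without any 1 of control replicates 1 to 3 (−0.48, −0.48 and −0.40), A-labelled replicate 1 (−0.46) or B-labelled replicates 1 and 3 (−0.40 and −0.39). The neuregulins NRG1 and NRG4 did not pass, with log2 fold changes of 0.50 and 0.07 for label A and −0.29 and 0.39 for label B. EGF itself was at 0.05 to 0.39 CPM and was not tested.

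Genes that cut or traffic the ligands went both ways. Of 12 tested, 4 were higher and 5 lower under label A (median log2 fold change −0.25) and 3 higher and 4 lower under label B (median −0.10), beside all-gene medians of −0.02 and 0.0043. Across all tested genes 23.9% were called higher and 27.6% lower under label A, and 15.6% and 18.3% under label B. With library totals alone, the counts of the list were 1 higher and 7 lower, and 2 higher and 4 lower. On that scale 1257 of all 13893 tested genes were called higher and 6532 lower under label A, and 958 and 4127 under label B. ADAM17, the main protease that frees HBEGF, AREG, EREG and TGFA, rose from 65.7 ± 6.08 CPM in control to 145 ± 12.9 under label A (log2 fold change 1.13) and 118 ± 8.95 under label B (0.83). RHBDF2, which escorts and activates ADAM17, fell from 34.1 ± 7.72 CPM to 7.12 ± 1.94 (−2.11) and 18.3 ± 3.72 (−0.86). Its relative RHBDF1 changed in opposite directions, −0.80 under label A and 0.41 under label B. ADAM19, a protease linked to neuregulin shedding, was lower at −0.93 and −1.67, and so was NKD2, which carries TGFA to the basolateral membrane, at −0.70 and −0.63. NRDC, an enhancer of ADAM-mediated shedding, was higher at 0.30 and 0.63. With library totals NRDC turned to −0.070 under label A, and RHBDF1 under label B fell short at 0.22. Left-out libraries that ended a call were control 1, control 2, control 3 and A-labelled 2 for NRDC under label A (0.30, 0.28, 0.31 and 0.25) and control 1, control 2 and B-labelled 1 for RHBDF1 under label B (0.37, 0.38 and 0.33).

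Negative regulators of the receptors were higher more often than lower with TMM factors. Of 18 tested, 7 were higher and 2 lower under label A (median 0.31) and 5 higher and 3 lower under label B (median 0.18), while library totals alone gave 2 higher and 4 lower, and 2 higher and 5 lower. The 9 of 18 called under label A and 8 of 18 under label B stand beside 51.4% and 34% of all tested genes. All-gene medians were −0.02 and 0.0043, and these shares and medians are with TMM factors. With library totals, 16.1% of the calls among all genes were higher for label A and 18.8% for label B. ERRFI1 (MIG6), an inhibitor that binds the EGFR kinase, rose from 271 ± 23.9 CPM to 423 ± 43.1 under label A (0.64) and 602 ± 137 under label B (1.13). The phosphatases PTPN2 (0.75 and 0.44) and PTPN12 (0.40 and 0.33) and the ubiquitin ligase adaptor SOCS4 (0.52 and 0.63) were higher under both labels. PTPN1, a phosphatase that acts on EGFR at the endoplasmic reticulum, was lower under both (−0.72 and −0.45). With library totals ERRFI1 (0.27), SOCS4 (0.16) and PTPN12 (0.038) no longer passed under label A, nor did PTPN2 (0.23) and PTPN12 (0.12) under label B. Under label B, calls also ended without control 2 or B-labelled 3 for PTPN2 (0.30 and 0.41), and without control 1, control 2, B-labelled 2 or B-labelled 3 for PTPN12 (0.28, 0.35, 0.27 and 0.36).

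Downstream adaptors and kinases were split evenly. Of 26 tested, 9 were higher and 8 lower under label A (median 0.05), and 8 higher and 8 lower under label B (median 0.04), against 4 and 11, and 4 and 10, with library totals alone. Of all tested genes, 51.4% were called with TMM factors under label A (23.9% higher, 27.6% lower) and 34% under label B (15.6% higher, 18.3% lower). With library totals, 16.1% of the calls among all genes were higher for label A and 18.8% for label B. GRB2, the adaptor that links active receptors to RAS, rose from 110.5 ± 5.30 CPM to 284 ± 6.55 (log2 fold change 1.35) and 228 ± 20.1 (1.04). Along the RAS-ERK arm, NRAS (1.18 and 0.67) and MAP2K1 (0.84 and 0.54) were higher under labels A and B in that order, while HRAS (−0.61 and −0.96) and ARAF (−1.05 and −0.52) were lower. Along the PI3K-AKT arm, AKT1 (−0.99 and −1.32), AKT2 (−0.59 and −0.35) and the PI3K subunit PIK3R1 (−0.60 and −0.83) were lower, and the subunit PIK3R3 (0.74 and 0.65) was higher. PLCG1, a phospholipase recruited by EGFR, was lower (−1.59 and −0.84). The phosphatase PTPN11 (SHP2) changed in opposite directions (0.36 and −0.40), and the transcription factor STAT5B was lower under label A (−1.33) with −0.31 under label B, where it did not pass. With library totals PTPN11 turned to −0.0063 under label A, and STAT5B passed under label B (−0.49). The smaller changes also hung on single libraries. Under label A, calls ended without control 1, control 3, A-labelled 2 or A-labelled 3 for PTPN11 (0.31, 0.36, 0.32 and 0.30), without control 1 or A-labelled 3 for HRAS (−0.49 and −0.48), and without control 2, control 3, A-labelled 1 or A-labelled 3 for PIK3R1 (−0.54, −0.58, −0.47 and −0.60), which was also lost with no filter. Under label B they ended without control 2, control 3, B-labelled 1 or B-labelled 3 for PTPN11 (−0.35, −0.40, −0.38 and −0.36), without control 2 for ARAF (−0.48), and without control 2, control 3 or B-labelled 1 for AKT2 (−0.33, −0.32 and −0.32).

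Of 17 tested genes known as transcriptional output of RAS-ERK signalling, 9 were higher and 4 lower under label A (median 0.42) and 6 higher and 2 lower under label B (median 0.20). With library totals alone the counts were 6 and 5, and 4 and 3. On that scale 16.1% of the calls among all genes were higher for label A and 18.8% for label B. With TMM factors the background for label A was 23.9% of all tested genes higher and 27.6% lower (median −0.02). For label B it was 15.6% higher and 18.3% lower (median 0.0043). Genes of this list that were higher under both labels included the transcription factors EGR1 (1.66 and 1.09) and FOSL1 (1.12 and 0.95), the stress-responsive IER3 (1.66 and 1.002) and the cyclin CCND1 (0.87 and 0.50). The feedback regulators did not move as 1 group. DUSP5, a nuclear ERK phosphatase, was higher (1.44 and 0.43), whereas DUSP6, its cytoplasmic relative, fell from 123 ± 7.94 CPM to 57.9 ± 11.8 (−1.09) and 65.9 ± 3.37 (−0.89), and SPRED2, an inhibitor of RAS-ERK signalling, fell at −1.06 and −0.84. ETV5, an ETS factor, was at 54.5 ± 2.18 CPM in control and 53.6 ± 3.02 under label B (−0.02) but at 17.2 ± 0.77 under label A (−1.61), as for ERBB2, with the A-labelled libraries apart from the others. The label B change of DUSP5 no longer passed with library totals (0.22), with edgeR (0.42, adjusted p = 0.0562) or with no filter (0.43, adjusted p = 0.0881), nor without control 2, control 3, A-labelled 1 or any B-labelled library (0.32 to 0.45).

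**Figure D5:**
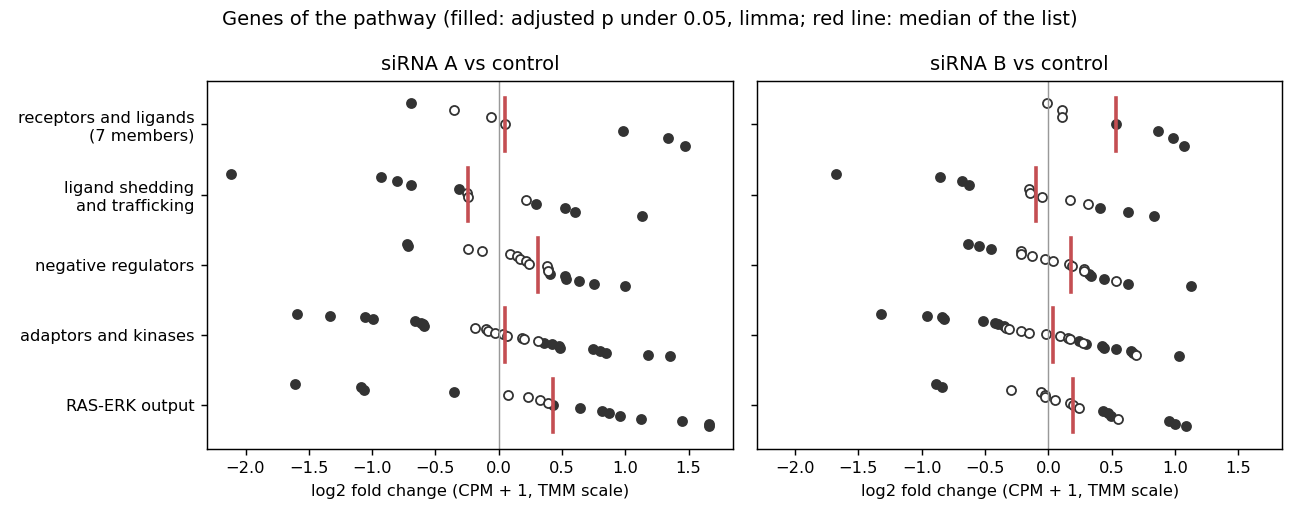
Log2 fold change on the log2(CPM + 1) scale with TMM factors (x axis) of the 7 family members and of 4 lists of pathway genes (rows) for label A and label B against control; filled points had an adjusted p under 0.05 in limma and the red line is the median of the list. Each list holds genes on both sides of 0, with medians for label A from −0.25 (shedding and trafficking) to 0.42 (RAS-ERK output).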

How the data were processed

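RNA was sequenced from 9 HCT116 libraries in 3 groups of 3, read as single ends of 50 bases after oligo-dT purification. The authors deposited 1 table of CPM values, which carry no scaling between libraries beyond the library total. The submitters' processing notes name TopHat2, HTSeq and GRCh37 (hg19), while versions, strand use, annotation and the treatment of reads with several positions are not given in the sources used here. All values (100%, tolerance 0.001) were whole multiples of the worth of 1 read, so reads and depth could be recovered (15566530 to 23277549 reads, 244 rows at 0 throughout). Identifiers were matched without version to GENCODE lifted to GRCh37 (14871 of 15354).

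Tests were planned for the CPM scale: limma 3.58.1 (R 4.3.3) on log2(CPM + 1) after TMM scaling (edgeR 4.0.16), with all 9 libraries in 1 model, keeping the 13893 genes (90.5%) that reached 1 CPM in 3 or more libraries, and Benjamini-Hochberg adjustment over all of them. The threshold was 0.05. The code was tested on simulated data first. Within groups, replicates correlated at 0.983 to 0.994 across genes, with chi-square per degree of freedom of 12.2 to 50.9, so none was a repeat. Replicate numbers come from the titles. Same-numbered A and control libraries deviated together (r = 0.65, 0.41 and 0.13), each over the limit of 0.1, and were taken as paired. B and control (0.17, 0.44 and −0.39) and A and B (0.20, 0.44 and 0.02) were not. Differently numbered libraries were not compared for this. The main tests used no pairing, and the block was fitted to all 9 libraries, B-labelled ones included. Alternatives were other scaling, pseudocount 0.1, no filter, the block, edgeR's quasi-likelihood test and DESeq2 1.42.0 on recovered reads, and leaving out each library. The members and gene lists were chosen with earlier results of these data known. Beside the members, genes of these lists that passed in both comparisons with control, or had an absolute log2 fold change of at least 1 in either, are named, and a few genes that met a rule are not reported here. Stretches of 50 bases were counted over the whole of GRCh37, exactly and on both strands. Sequence work and plotting ran under Python 3.11.15 (pandas 2.3.3, numpy 2.4.6, matplotlib 3.10.9).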

Additional observations from a re-analysis of the deposited data

How the results depend on the processing

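Among the members, 7 results kept their direction and their side of the threshold under all alternatives run: EREG and HBEGF against control under both labels, AREG and ERBB2 for label A, and ERBB2 between the labels. Every other result changed side or sign under at least 1 of them. With library totals alone, EGFR for label A against control turned to −0.32 and for label B weakened to 0.32, ERBB3 became −0.42 for label A, −0.10 for label B and −0.32 between the labels, TGFA became −0.71 for label A and −0.10 for label B, and AREG between the labels became −0.015. With no filter on low genes, AREG for label B (0.86) no longer passed. With the replicate block, TGFA for label A (−0.35), EREG between the labels (0.40) and HBEGF between the labels (0.35) passed. The block changed no other call of a member. DESeq2 gave 0.40 and 0.41 for EREG and HBEGF between the labels, both called, and again 5 members. Why these calls changed was not tested beyond the shift of the median gene with library totals.

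Leaving out 1 library at a time, EGFR ran from −0.054 to 0.20 for label A (values of −0.045 without A-labelled replicate 2 and −0.015 without replicate 3), from 0.43 to 0.61 for label B and from −0.58 to −0.34 between the labels. ERBB2 for label B ran from −0.036 to 0.0073, being 0.00025 without control replicate 3. AREG ran from 0.56 to 1.12 for label B and from −0.14 to 0.42 between the labels, and EREG from 0.24 to 0.54 and HBEGF from 0.23 to 0.49 between the labels. TGFA ran from −0.49 to −0.25 for label A, from −0.025 to 0.21 for label B and from −0.53 to −0.36 between the labels, and the members called between the labels from 1 to 4. AREG could not be summed with AREGB, which has no row here, so that alternative was not run. For the 34 pathway genes that met the rule for naming, 1013 of 1088 values under these alternatives, added after the data were seen, kept direction and side of the threshold. Another 70 no longer passed, 1 newly passed and 4 changed sign, namely NRDC (−0.070) and PTPN11 (−0.0063) for label A with library totals, and ETV5 for label B, which ran from −0.064 to 0.016, without control replicate 2 (0.0086) or B-labelled replicate 3 (0.016). Levels per kilobase moved for all 7 genes with the longest transcript as the length. At 59 to 158 reads, AREG is also the member whose precision depth limits most.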
